A study of Mus musculus with 17 samples.

Results

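The 42 genes described here are a fixed list of cell cycle genes, chosen by name and read by gene ID from a table of 24432 gene IDs. They were grouped as 15 regulators of G1, 10 genes of DNA synthesis and 17 genes of mitosis, the last with Ccna2 and Mybl2. The G1 regulators are cyclins D and E and their kinases, kinase inhibitors, Rb1, E2f1, E2f2 and Cdc25a. Each gene was put in 1 class only, and that assignment was not tested. All 42 were found, and all 42 passed the filter of at least 1 FPKM (fragments per kilobase of transcript, scaled to the size of the library) in at least 3 libraries. RNA was sequenced from dissected mouse kidneys at embryonic stage E12.5, all of mixed strain, in 17 libraries. Of these, 5 carried the genotype Ctnnb1-delta3 c/+;Foxd1, in which Cre made in the Foxd1-expressing stromal lineage activates 1 copy of the beta-catenin gene Ctnnb1. Another 3 carried Ctnnb1-delta3 c/+;Six2, with the same allele recombined by Cre in the Six2-expressing nephron progenitor lineage, and 9 were wild type. No labelled treatment, Cre or allele is shared by all groups. The labels do not say whether a library is 1 animal or a pool, nor whether replicates came from separate litters, so the p-values below measure only the spread between these libraries. Cells without Cre remain in each sample because whole kidneys were used, and the gene-level value of Ctnnb1 does not show the loss of exon 3 and so checks no label.

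D cyclins bind Cdk4 and Cdk6 and phosphorylate the retinoblastoma protein Rb1, which otherwise holds back E2F transcription factors. Cyclin E with Cdk2 then carries the cell into S phase, where the Mcm2 to Mcm7 helicase unwinds DNA, Pcna clamps the polymerase, and ribonucleotide reductase (Rrm1, Rrm2) and thymidylate synthase (Tyms) supply nucleotides. Cyclins A and B with Cdk1 drive mitosis, in which the Aurora and Polo kinases and the checkpoint proteins Bub1, Bub1b and Mad2l1 act before Cdc20 activates the ligase that ends it. The inhibitors Cdkn1a (p21), Cdkn1b (p27) and Cdkn2c (p18) hold these kinases in check. Ccnd1 is a known target gene of beta-catenin signalling in several tissues. In the embryonic kidney, nephron progenitors, ureteric bud tips and stroma all divide, so bulk RNA carries the cell cycle genes of each.

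Windows upstream of the RefSeq start sites of the members were searched for regulatory letters, and differences between the classes were not tested. RefSeq start sites on GRCm38.p6 gave 250 bases of upstream sequence for 33 of the 42 members, in 38 windows. The 15 G1 windows came from 11 genes, the 10 S phase windows from 9 and the 13 mitotic windows from 13. Ccnd1, Ccnd2, Ccne2, Rb1, Mcm4, Ccna2, Aurkb, Cdc25c and Foxm1 had no window and were not searched. Each window of E2f1, Cdk6, Cdkn2c and Mcm7 lay wholly inside the GENCODE span of its gene. So did the downstream windows of Ccnd3, Cdkn1a and E2f2, and no mitotic window did. The bases just upstream of the first GENCODE start of E2f1, Cdk6, Cdkn2c and Mcm7 were therefore not searched. The G1 and S phase counts below include these windows, and the TTTGAA match of G1 lay in the E2f2 one. Each window was searched on both strands for CCAAT, for TTTGAA (the CHR element of mitotic genes), for TTTGGCGC, TTTCGCGC, TTTCCCGC and TTTGCCGC (E2F words), for CTTTGAT (a TCF word) and for the p53 half-site. An E2F match on one strand can overlap one on the other strand, as in Mcm5 and Mcm6. CCAAT was found in 9 of 10 S phase windows, 10 of 13 mitotic windows and 6 of 15 G1 windows, against 33.85% of 32851 windows of all genes. TTTGAA was found in 5 of 13 mitotic windows, 1 of 10 S phase windows and 1 of 15 G1 windows, against 15.987% of all. An E2F word was found in 3 of 10 S phase windows (Mcm5, Mcm6 and Mcm7), in 2 of 15 G1 windows (Cdk2 and Cdc25a) and in 1 of 13 mitotic windows (Cdk1), against 1.86% of all. The TCF word was found only upstream of Cdk4 and Bub1b among these 38 windows, against 3.205% of all, and the p53 half-site upstream of Cdkn1a, Tyms, Birc5 and Bub1b, against 7.126%. Cdkn1a has another RefSeq start, whose window (chr17:29093519-29093768) held none of the motifs searched. These are matches of letters and not measured binding. Some windows with matches are printed below as examples. Each holds a motif that most windows of its class lack, while the Pcna window, for one, held CCAAT alone. For S phase they are Mcm5 (chr8:75109259-75109508 on the plus strand) and Mcm6 (chr1:128359706-128359955 on the minus strand), with the S phase calls of each mutant. For mitosis they are Cdk1 (chr10:69352913-69353162 on the minus strand) and Top2a (chr11:99024190-99024439 on the minus strand). Cdkn1a (chr17:29090729-29090978 on the plus strand) is the gene with the highest fold change. Each is written 5′ to 3′ toward the gene, and capitals mark every match of the motifs named. The last bases of the Cdk1 and Cdkn1a windows lie in GENCODE transcripts that start earlier than the RefSeq ones. The 50 bases after the RefSeq start were found in a GENCODE transcript of the same gene for 25 of the 38 windows, Cdk1, Top2a and Cdkn1a included and Mcm5 and Mcm6 not, so some start sites differ between the annotations.
Mcm5: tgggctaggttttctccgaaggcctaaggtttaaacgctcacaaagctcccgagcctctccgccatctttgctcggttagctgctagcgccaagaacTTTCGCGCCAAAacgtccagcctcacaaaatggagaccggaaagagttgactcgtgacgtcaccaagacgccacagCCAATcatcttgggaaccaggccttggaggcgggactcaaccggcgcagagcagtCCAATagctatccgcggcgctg
Mcm6: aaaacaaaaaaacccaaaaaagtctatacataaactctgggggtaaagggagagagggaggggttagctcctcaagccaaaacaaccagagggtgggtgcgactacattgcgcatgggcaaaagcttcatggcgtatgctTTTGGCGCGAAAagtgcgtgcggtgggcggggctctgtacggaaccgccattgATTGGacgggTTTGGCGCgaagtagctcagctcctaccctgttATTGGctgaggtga
Cdk1: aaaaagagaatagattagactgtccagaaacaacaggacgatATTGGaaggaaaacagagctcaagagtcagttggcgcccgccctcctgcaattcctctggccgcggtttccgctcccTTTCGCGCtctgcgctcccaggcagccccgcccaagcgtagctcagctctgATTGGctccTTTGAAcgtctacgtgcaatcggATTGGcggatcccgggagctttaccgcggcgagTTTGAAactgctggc
Top2a: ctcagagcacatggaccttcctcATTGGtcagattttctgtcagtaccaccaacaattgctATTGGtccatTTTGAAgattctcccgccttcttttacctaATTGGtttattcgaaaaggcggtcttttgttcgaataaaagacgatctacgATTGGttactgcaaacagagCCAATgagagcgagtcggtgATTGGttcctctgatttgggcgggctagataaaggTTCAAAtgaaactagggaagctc
Cdkn1a: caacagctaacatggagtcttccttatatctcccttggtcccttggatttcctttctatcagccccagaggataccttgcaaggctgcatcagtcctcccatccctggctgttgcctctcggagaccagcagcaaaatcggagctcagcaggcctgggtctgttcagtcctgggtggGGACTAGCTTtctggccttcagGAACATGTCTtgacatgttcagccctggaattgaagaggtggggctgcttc

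**Figure D1:**
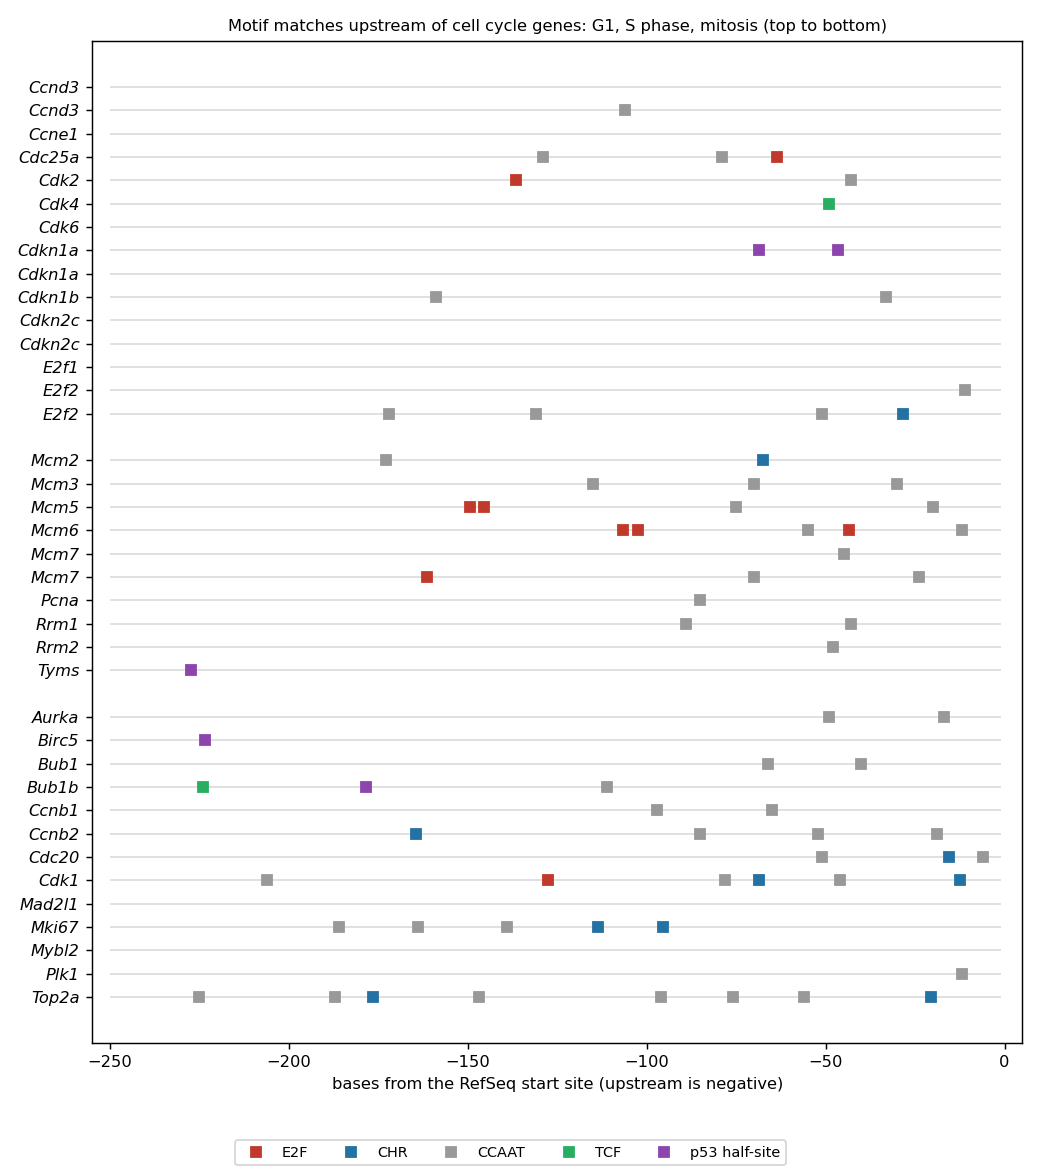
Motif matches in the 250 bases upstream of the RefSeq start sites of 33 members, 1 line per window, with the distance from the start site in bases on the x axis. Grey squares (CCAAT) occur in most S phase and mitotic windows, blue squares (CHR) in 5 of the 13 mitotic windows, and red squares (E2F words) in 6 windows.

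The libraries fell into 2 sets. The 5 Foxd1-Cre libraries and wild types 1 to 6 had 5312 to 5807 gene IDs at 0, and their smallest FPKM steps, taken as 1 read, corresponded to 28200000 to 37200000 reads per library. The 3 Six2-Cre libraries and wild types 7 to 9 had 7590 to 7891 IDs at 0 and 5400000 to 5900000 reads. Comparisons were therefore kept within a set, and no library served as control for both. Changes are differences of log2(FPKM + 1), which understates the fold of genes at low FPKM. A change was called at a Benjamini-Hochberg adjusted p under 0.05 from limma, over all genes tested and two-sided.

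In Foxd1-Cre kidneys Cdkn1a, Rb1 and Cdk6 rose and Ccne1 and Mcm5 fell, 5 of 42 members, against 13.3% of the 13996 genes tested. Over all genes 8.45% rose and 4.82% fell. In Six2-Cre kidneys Cdkn1a and Ccnd2 rose and Ccnd1, Mcm2, Mcm6, Mcm7 and Rrm2 fell, 7 of 42, against 13.8% of 13828 genes. Over all genes 7.93% rose and 5.84% fell there. In both mutants the share of members called lay near that of all genes. Of the 12 calls, 7 were among the 15 G1 regulators, 5 among the 10 S phase genes and 0 among the 17 mitotic genes. Cdkn1a was counted in both mutants, and the spread over the classes was not tested. Of the 5 S phase calls, only that of Mcm6 held with any 1 library left out. All mutant values lay above all wild-type values for 3 members and below them for 1 in Foxd1-Cre kidneys, against 6.89% and 3.8% of all genes (10.7% either way). In Six2-Cre kidneys 7 members were separated upward and 15 downward, against 18.0% and 17.7% of all genes (35.7% either way). In bulk samples, fewer cells of a type and less RNA per cell cannot be told apart, and this holds for every value below. Rescaling each library to the same sum left the 3 higher calls in Foxd1-Cre kidneys and removed Mcm5, and over all genes it turned 1182 higher and 674 lower calls into 1231 and 408.

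**Figure D2:**
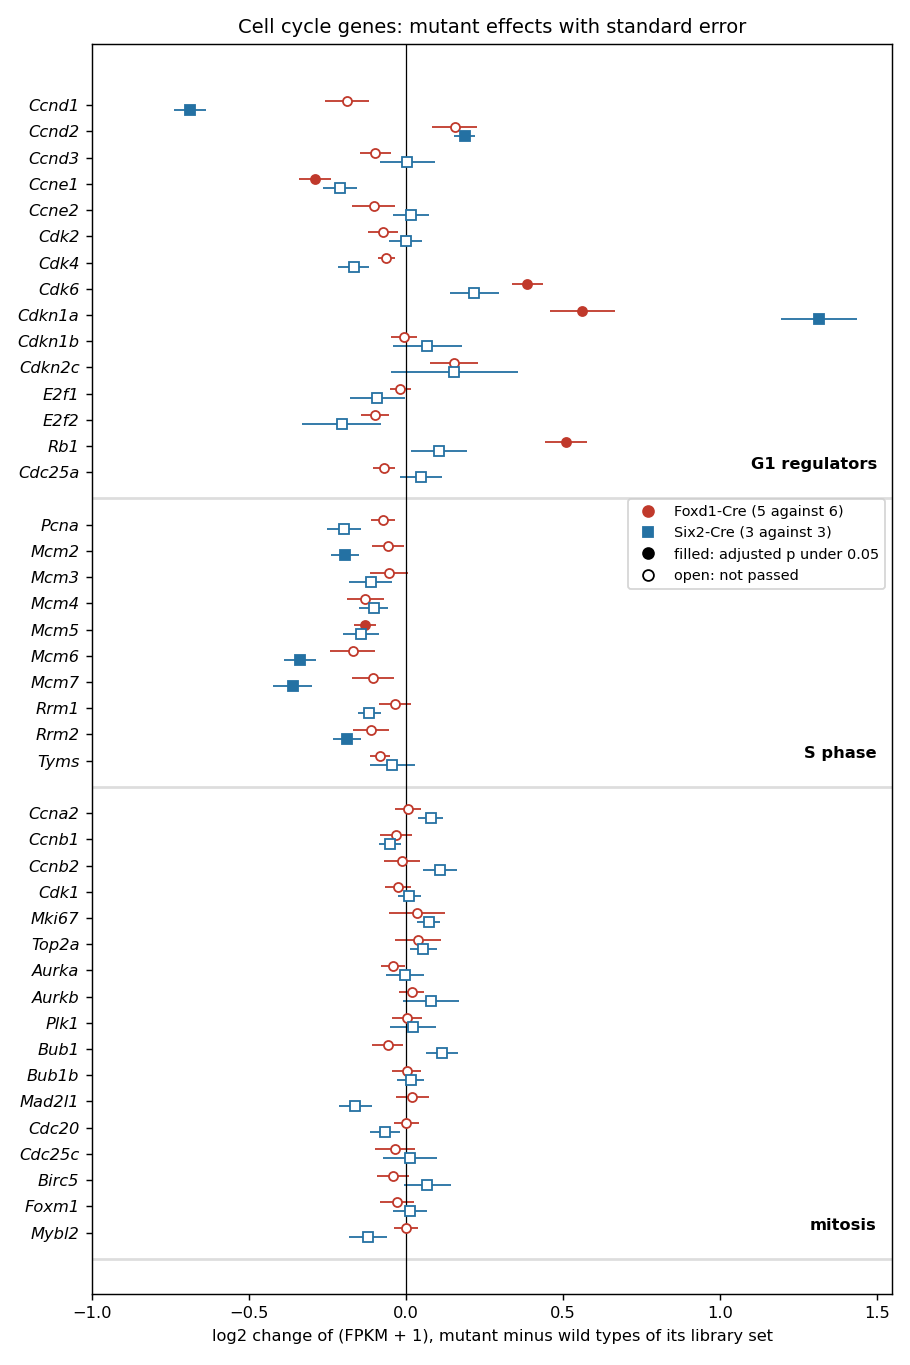
Log2 change of each of the 42 members against the wild types of the same library set, with bars of 1 standard error, in Foxd1-Cre (red circles, 5 against 6 libraries) and Six2-Cre kidneys (blue squares, 3 against 3). Filled points passed adjusted p under 0.05. All 10 S phase estimates lie below 0 in both mutants, and the mitotic estimates lie between -0.06 and 0.04 in Foxd1-Cre and between -0.16 and 0.11 in Six2-Cre kidneys.

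Among the G1 regulators, the kinase inhibitor Cdkn1a rose in both mutants and rose more in Six2-Cre kidneys. Its values were 8.25, 6.65, 9.20, 8.16 and 11.0 FPKM in the 5 Foxd1-Cre libraries, while wild types 1 to 6 ran from 4.52 to 6.13 FPKM with a median of 5.53. In the Six2-Cre libraries it stood at 12.4, 15.1 and 15.3 FPKM, against 5.85, 4.43 and 5.12 in wild types 7 to 9. Neither mutant overlapped its wild types. The mean was 57.7% above wild type in Foxd1-Cre and 178% above in Six2-Cre kidneys. The log2 change was 0.56 ± 0.10 (SE, adjusted p = 0.00329) and 1.32 ± 0.12 (SE, adjusted p = 0.002), and the Foxd1-Cre effect was smaller by 0.75 ± 0.16 (SE, adjusted p = 0.0059). Cdkn1a (chr17:29090976-29100727, plus strand, GRCm38) kept each of these 3 calls with any 1 library left out. With the mean log2 level of erythroid marker genes as a covariate the Foxd1-Cre change was 0.39 (adjusted p = 0.158) and the Six2-Cre change 0.76 (adjusted p = 0.412). With this covariate 0 of 13828 genes were called in Six2-Cre kidneys, so that loss is not particular to Cdkn1a. Erythroid markers summed to 3870 to 4770 FPKM in Six2-Cre libraries against 7590 to 9190 in wild types 7 to 9. Their level and the genotype cannot be told apart in this set.

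Cyclin D1 fell in Six2-Cre kidneys. Ccnd1 (chr7:144929931-144939925, minus strand) stood at 77.8, 77.2 and 79.5 FPKM in the Six2-Cre libraries and at 135, 121 and 123 FPKM in wild types 7 to 9, so its mean fell by 38.3%. The 5 Foxd1-Cre libraries had 119, 111, 122, 114 and 121 FPKM and wild types 1 to 6 ran from 117 to 159 FPKM with a median of 129. The Six2-Cre group lay below all of its wild types, and the Foxd1-Cre group overlapped its own. The change was -0.69 ± 0.05 (SE) in Six2-Cre kidneys (adjusted p = 0.0013) and -0.19 ± 0.07 (SE) in Foxd1-Cre kidneys (adjusted p = 0.108). The Foxd1-Cre effect lay 0.50 ± 0.09 (SE) above the Six2-Cre effect (adjusted p = 0.000838), and this difference was called with any 1 library left out. Without wild type 2 the Foxd1-Cre decrease was called as well, at -0.23 (adjusted p = 0.0406). With the erythroid level as a covariate, the Foxd1-Cre decrease was called at -0.43 (adjusted p = 0.00111), and the Six2-Cre change of -0.84 no longer was (adjusted p = 0.229). The latter loss is not particular to Ccnd1, since 0 genes were called in Six2-Cre kidneys with this covariate.

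Cyclin D2 rose in Six2-Cre kidneys. Ccnd2 (chr6:127125162-127152193, minus strand) had 192, 188 and 191 FPKM against 165, 171 and 165 FPKM, a gap with no overlap. Its change was 0.19 ± 0.03 (SE, adjusted p = 0.0179), and the call ended without any 1 of the 3 Six2-Cre libraries (adjusted p from 0.0555 to 0.073). In Foxd1-Cre kidneys it had 121, 126, 143, 129 and 136 FPKM, wild types 1 to 6 ran from 103 to 137 FPKM with a median of 120.0, and the change was 0.15 ± 0.07 (SE, adjusted p = 0.213). The 2 changes of Ccnd2 differed by -0.03 ± 0.08 (SE) with an interval of -0.20 to 0.14. Ccnd3 passed in neither mutant, at -0.10 (95% interval -0.20 to 0.01) and 0.00 (-0.21 to 0.22).

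Of the kinases that pair with D cyclins, Cdk6 (chr5:3341485-3531008, plus strand) rose in Foxd1-Cre kidneys, where its values were 2.87, 2.87, 3.00, 2.89 and 3.05 FPKM and wild types 1 to 6 ran from 1.74 to 2.30 FPKM with a median of 2.00. No Foxd1-Cre library fell within the wild-type range, the mean was 45.7% higher, and the change was 0.39 ± 0.05 (SE, adjusted p = 0.000222). In the Six2-Cre libraries Cdk6 had 6.55, 6.63 and 6.85 FPKM against 5.50, 5.26 and 6.07 FPKM, again without overlap, and the change of 0.22 ± 0.08 (SE) was not called (adjusted p = 0.125). The difference of the 2 changes was 0.17 ± 0.09 (SE), with an interval of -0.03 to 0.37. Cdk4, the G1 member with the highest FPKM, stood at 666, 678, 639, 666 and 659.8 FPKM in Foxd1-Cre kidneys, and wild types 1 to 6 ran from 668 to 721 FPKM with a median of 686. The Six2-Cre libraries had 435, 434 and 426 FPKM and wild types 7 to 9 512, 485 and 459 FPKM. Its change was not called in either, at -0.06 ± 0.03 (SE, adjusted p = 0.198) and -0.17 ± 0.05 (SE, adjusted p = 0.0743), although the Six2-Cre libraries lay below all 3 wild types. Without wild type 9 the Six2-Cre decrease of Cdk4 was called (-0.21, adjusted p = 0.047).

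Rb1, the brake on E2F, rose in Foxd1-Cre kidneys. Rb1 (chr14:73183673-73325822, minus strand) had 6.08, 4.95, 6.08, 6.43 and 6.14 FPKM in the 5 Foxd1-Cre libraries, and wild types 1 to 6 ran from 3.36 to 4.24 FPKM with a median of 3.91. All 5 lay above all 6 wild types, the mean was 53.6% higher, and the change was 0.51 ± 0.07 (SE, adjusted p = 0.000285). In Six2-Cre kidneys the values of 6.22, 7.55 and 6.56 FPKM overlapped those of wild types 7 to 9, 5.92, 6.29 and 6.44 FPKM, and the change was 0.10 ± 0.09 (SE, adjusted p = 0.486). The 2 changes differed by 0.41 ± 0.11 (SE, adjusted p = 0.0332), which held in 12 of the 17 fits that left out 1 library. Leaving out Six2-Cre replicate 1 or 3 gave adjusted p = 0.102 and 0.114, leaving out wild type 7, 8 or 9 gave 0.0585, 0.0985 and 0.0896, and dropping the filter on low values gave 0.0585.

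Cyclin E1 fell in Foxd1-Cre kidneys. Ccne1 (chr7:38097984-38107534, minus strand) had 41.98, 47.9, 49.0, 48.6 and 49.4 FPKM, all below the wild types, which ran from 53.5 to 62.6 FPKM with a median of 58.1. The mean fell by 18.5% and the change was -0.29 ± 0.05 (SE, adjusted p = 0.00245). The Six2-Cre libraries, at 33.3, 35.3 and 35.8 FPKM, also lay below wild types 7 to 9, at 41.8, 38.3 and 41.1 FPKM, with a change of -0.21 ± 0.05 (SE) that just missed the threshold (adjusted p = 0.0501). It was called with libraries rescaled by the median ratio (-0.22, adjusted p = 0.0403). Its 2 changes differed by -0.08 ± 0.07 (SE), with an interval of -0.24 to 0.08. The calls of Ccne1, Cdk6 and Rb1 held with any 1 library of the Foxd1-Cre set left out, and ended when all 9 wild types served as controls (changes of -0.12, 0.01 and 0.32).

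With Cdk4, 9 G1 regulators passed in neither mutant. The other 8 are Ccne2, its kinase Cdk2, the phosphatase Cdc25a, the inhibitors Cdkn1b and Cdkn2c, the activators E2f1 and E2f2, and Ccnd3. Their changes ran from -0.10 (Ccne2) to 0.15 (Cdkn2c) in Foxd1-Cre and from -0.20 (E2f2) to 0.15 (Cdkn2c) in Six2-Cre kidneys. Cdkn1b averaged 14.3 ± 0.89 FPKM (SD, n = 5) with Foxd1-Cre, while wild types 1 to 6 averaged 14.4 ± 0.50 FPKM (SD, n = 6). With Six2-Cre it averaged 21.2 ± 2.94 FPKM (SD, n = 3), while wild types 7 to 9 averaged 20.1 ± 1.54 FPKM (SD, n = 3). The interval of its Six2-Cre change, -0.20 to 0.33, leaves room for a change either way.

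**Figure D3:**
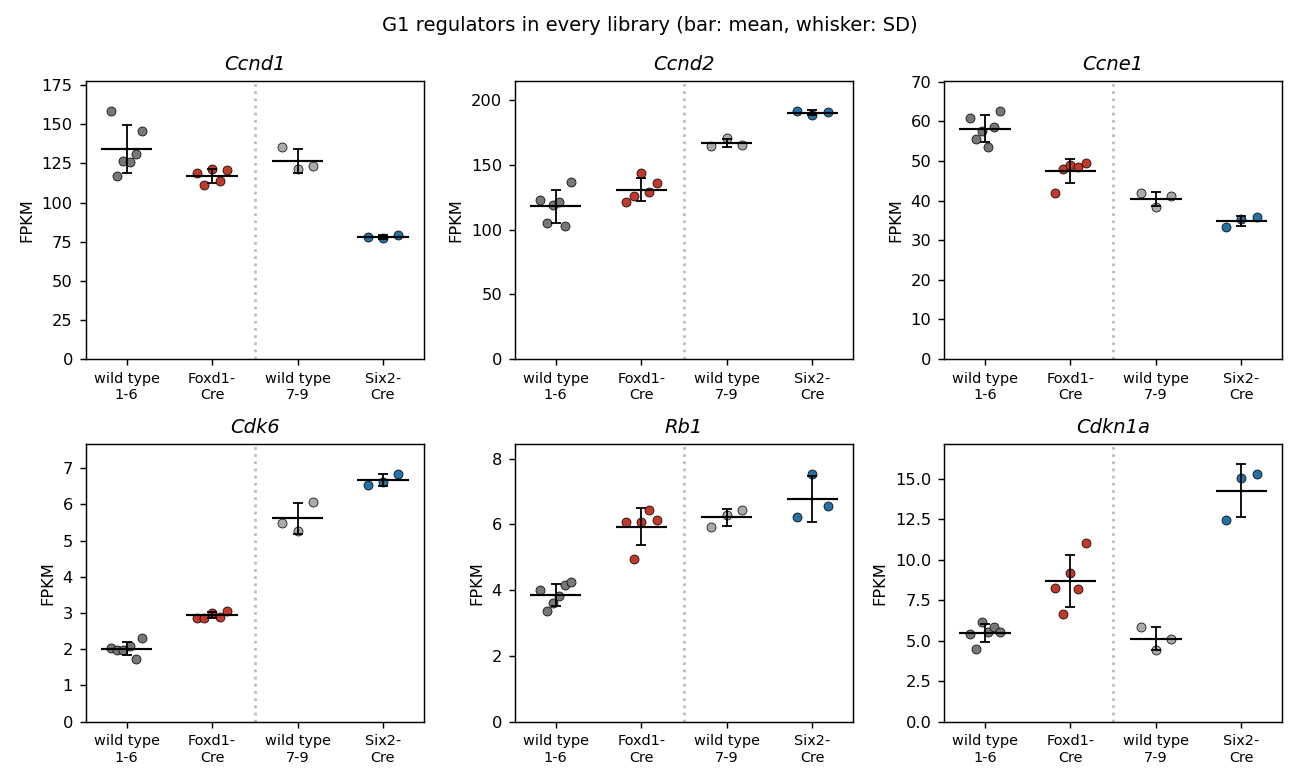
FPKM of Ccnd1, Ccnd2, Ccne1, Cdk6, Cdkn1a and Rb1 in every library, by group, with 1 point per library, a bar at each group mean and whiskers of 1 SD; the dotted line parts the library sets. The 3 Six2-Cre libraries lie below wild types 7 to 9 for Ccnd1 (77.2 to 79.5 FPKM) and above them for Cdkn1a (12.4 to 15.3 FPKM), and Rb1 separates Foxd1-Cre from wild types 1 to 6 (4.95 to 6.43 against 3.36 to 4.24 FPKM).

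All 10 S phase genes had an estimate below 0 in both mutants, where 53% and 51.8% of all genes did. The median change of the 10 was -0.09 in Foxd1-Cre and -0.17 in Six2-Cre kidneys, against -0.008 and -0.009 over all genes tested. All 10 estimates stayed below 0 under both rescalings of the libraries. Of the 10, 1 fell in Foxd1-Cre kidneys (4.82% of all genes did) and 4 fell in Six2-Cre kidneys (5.84% of all genes did). In Six2-Cre kidneys 8 of 10 had all 3 mutant libraries below all 3 wild types, against 17.7% of all genes, and in Foxd1-Cre kidneys 0 of 10 were separated, against 3.8%. The 10 genes come from the same libraries and moved together within groups, with a median correlation of 0.75 in the Foxd1-Cre set and 0.56 in the Six2-Cre set. Their signs and separations are therefore not 10 separate observations, and the shares of all genes beside them give no test.

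Among the S phase genes in Six2-Cre kidneys, the helicase subunits Mcm6 and Mcm7 had the lowest estimates. Mcm6 (chr1:128331590-128359664, minus strand) had 108, 98.3 and 106 FPKM in Six2-Cre libraries and 137, 130.4 and 129 FPKM in wild types 7 to 9, no overlap and a mean that fell by 21.0%. The change of -0.34 ± 0.05 (SE) was called (adjusted p = 0.00916), and was called with any 1 library left out. Its Foxd1-Cre values of 114, 121, 107, 104 and 102 FPKM overlapped those of wild types 1 to 6, which ran from 103 to 135 FPKM with a median of 127, with a change of -0.17 ± 0.07 (SE, adjusted p = 0.163). Mcm7 (chr5:138164583-138172422, minus strand) had 95.2, 87.7 and 94.8 FPKM against 123, 124 and 110.4 FPKM, with no overlap and a change of -0.36 ± 0.06 (SE, adjusted p = 0.0149). Leaving out Six2-Cre replicate 2, wild type 7 or wild type 8 ended it (adjusted p = 0.0508, 0.0522 and 0.0539). In the Foxd1-Cre libraries Mcm7 had 136, 132, 111, 114 and 111 FPKM, within reach of the wild types, which ran from 114 to 137 FPKM with a median of 132, and the change was -0.11 ± 0.07 (SE, adjusted p = 0.374).

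Mcm2 and Rrm2, the small subunit of ribonucleotide reductase, fell by less in Six2-Cre kidneys. Mcm2 had 65.1, 62.0 and 61.2 FPKM against 73.9, 72.8 and 69.0 FPKM, with a change of -0.19 ± 0.05 (SE, adjusted p = 0.0392). Rrm2 had 104, 107 and 101 FPKM against 124, 116 and 116 FPKM, with a change of -0.19 ± 0.04 (SE, adjusted p = 0.0406). Both groups were separated for both genes. The Rrm2 call ended without any 1 of the 6 libraries (adjusted p from 0.0708 to 0.131), and the Mcm2 call held only without wild type 9 (0.044) and otherwise ranged from 0.0613 to 0.128. In the Foxd1-Cre set, Rrm2 had 111, 98.7, 98.4, 106 and 91.9 FPKM and its wild types ran from 99.0 to 119.5 FPKM with a median of 109, a change of -0.11 ± 0.06 (SE, adjusted p = 0.26).

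Mcm5 (chr8:75109569-75128439, plus strand) fell in Foxd1-Cre kidneys. It had 82.6, 81.2, 77.5, 78.4 and 77.0 FPKM, and wild types 1 to 6 ran from 79.7 to 89.6 FPKM with a median of 88.1, a change of -0.13 ± 0.03 (SE, adjusted p = 0.029). The groups overlapped through wild type 5, which stood at 79.7 FPKM, and the call held in 4 of the 11 fits that left out 1 library. In Six2-Cre kidneys the values of 60.6, 63.0 and 62.4 FPKM lay below those of 74.1, 67.1 and 65.0 FPKM in wild types 7 to 9, and the change of -0.14 ± 0.06 (SE) was not called (adjusted p = 0.156). The 2 changes differed by 0.01 ± 0.07 (SE), with an interval of -0.13 to 0.16.

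Wild type 5 bore on the whole helicase family in the Foxd1-Cre comparison. It was the lowest of wild types 1 to 6 for Mcm2, Mcm3, Mcm4, Mcm5, Mcm6 and Mcm7. Of the other S phase genes it was also the lowest for Pcna, Rrm1 and Rrm2, and not for Tyms. Mcm2, for example, stood at 69.3 FPKM in wild type 5, while the other 5 wild types stood at 83.6 to 85.9 and the Foxd1-Cre libraries at 79.3, 79.6, 78.9, 77.8 and 77.3 FPKM. Without wild type 5, 6 members fell in Foxd1-Cre kidneys in place of 2: Ccne1, Mcm2 (-0.11, adjusted p = 0.00465), Mcm3 (-0.11, 0.0486), Mcm4 (-0.18, 0.00277), Mcm5 (-0.16, 0.00218) and Mcm6 (-0.22, 0.019). No label marks wild type 5 as different, but it had the fewest gene IDs at 0 (5312) and the largest FPKM sum (963729.2) of the 17 libraries. With wild type 5 in place the Mcm2 change was -0.06 ± 0.05 (SE, adjusted p = 0.535).

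The other S phase members passed in neither mutant with all libraries in place. Pcna, the one with the highest FPKM, had 244, 249 and 248 FPKM in Six2-Cre libraries against 307, 272 and 273 FPKM, separated but not called at -0.20 ± 0.06 (SE, adjusted p = 0.0659). In Foxd1-Cre libraries Pcna had 289.9, 282, 281, 292 and 263 FPKM, wild types 1 to 6 ran from 284 to 318 FPKM with a median of 293, and the change was -0.07 ± 0.04 (SE, adjusted p = 0.251). Mcm3, Mcm4, Rrm1 and Tyms ran from -0.13 (Mcm4) to -0.04 (Rrm1) in Foxd1-Cre and from -0.12 (Rrm1) to -0.04 (Tyms) in Six2-Cre kidneys. Without Foxd1-Cre replicate 1 the Tyms decrease in Foxd1-Cre kidneys was called (-0.11, adjusted p = 0.0325). With all libraries, no S phase member was called for the difference between the mutants. The nearest was Mcm7, whose changes differed by 0.26 ± 0.09 (SE, adjusted p = 0.0857), and by 0.31 without wild type 9 (adjusted p = 0.0273).

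**Figure D4:**
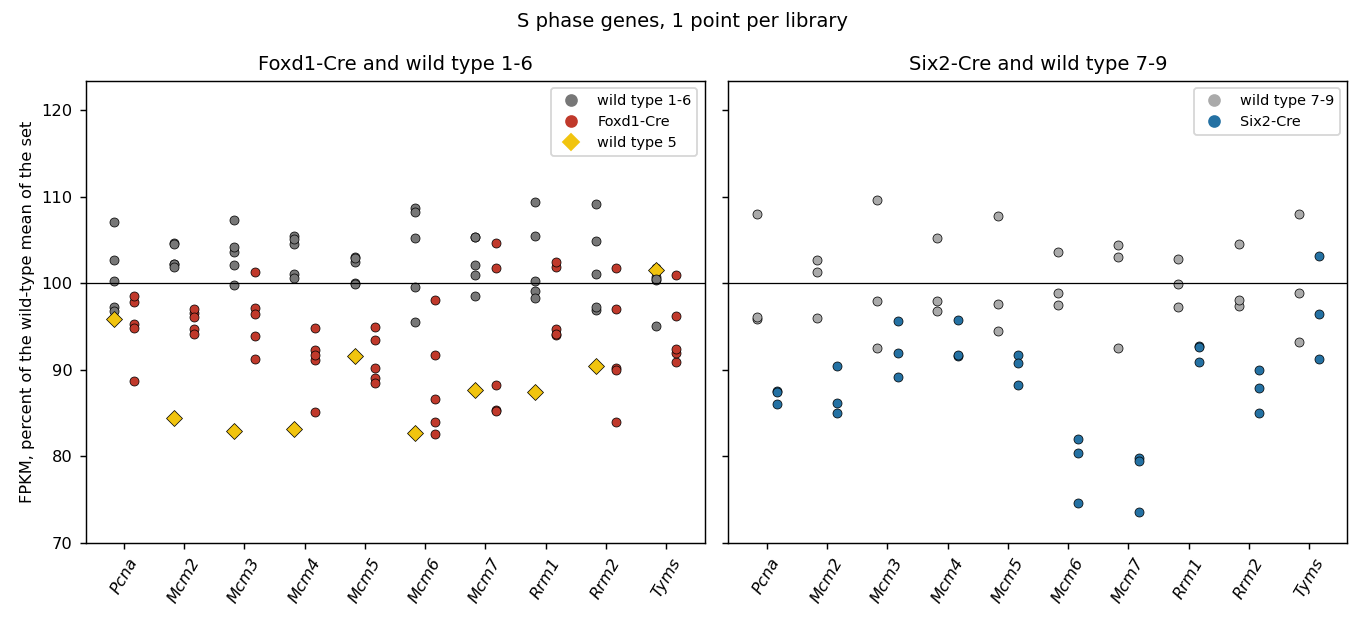
FPKM of the 10 S phase genes in every library as a percent of the wild-type mean of the same library set, 1 point per library. The Six2-Cre points of Mcm6 and Mcm7 lie lowest, and wild type 5 (yellow diamonds) lies below the other wild types for all 6 Mcm genes.

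No mitotic gene was called in either mutant, against 13.3% of all genes in Foxd1-Cre and 13.8% in Six2-Cre kidneys. At an unadjusted p under 0.05 in limma, 0 of 17 passed in Foxd1-Cre and 1 of 17 (Mad2l1) in Six2-Cre kidneys. The share of all genes at that unadjusted threshold was not computed. The median change was 0.00 in Foxd1-Cre and 0.02 in Six2-Cre kidneys. Top2a, the decatenating topoisomerase and the mitotic member with the highest FPKM, had 138, 132, 126, 131 and 119.8 FPKM in Foxd1-Cre libraries, and wild types 1 to 6 ran from 104 to 146 FPKM with a median of 125. In the Six2-Cre libraries it had 195, 209 and 195 FPKM against 196, 190.3 and 189.6 FPKM. Both pairs of groups overlapped, and the changes were 0.04 ± 0.07 (SE) and 0.05 ± 0.04 (SE), with intervals of -0.12 to 0.20 and -0.05 to 0.16.

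The intervals set how large an undetected mitotic change could be. For the proliferation antigen Mki67 they were -0.16 to 0.23 in Foxd1-Cre and -0.02 to 0.16 in Six2-Cre kidneys. Mki67 averaged 51.6 ± 2.46 FPKM (SD, n = 5) with Foxd1-Cre, where its wild types averaged 50.8 ± 7.64 FPKM (SD, n = 6). It averaged 108 ± 2.95 FPKM (SD, n = 3) with Six2-Cre, where its wild types averaged 103 ± 1.33 FPKM (SD, n = 3). For cyclin B1 (Ccnb1) they were -0.14 to 0.08 and -0.14 to 0.04, and for Cdk1 -0.11 to 0.06 and -0.08 to 0.10. The largest estimates in Six2-Cre kidneys were 0.11 ± 0.05 (SE) for the checkpoint kinase Bub1 (adjusted p = 0.197) and -0.16 ± 0.05 (SE) for the checkpoint protein Mad2l1 (adjusted p = 0.0987). In Six2-Cre kidneys 4 mitotic genes were separated upward and 3 downward, out of 17, against 18.0% and 17.7% of all genes.

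Averaged over each class, the S phase genes separated in Six2-Cre kidneys and the mitotic genes did not. The mean log2(FPKM + 1) of the 10 S phase genes was 6.56 to 6.57 in the 3 Six2-Cre libraries and 6.69 to 6.82 in wild types 7 to 9. In the Foxd1-Cre set it was 6.68 to 6.84 against 6.68 to 6.94, and the groups overlapped through wild type 5 alone, since the other 5 wild types stood at 6.85 to 6.94. The mean of the 17 mitotic genes was 5.71 to 5.74 in Six2-Cre libraries against 5.67 to 5.76, and 5.67 to 5.80 in Foxd1-Cre libraries against 5.64 to 5.86, with overlap in both. The difference between the classes was not tested.

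**Figure D5:**
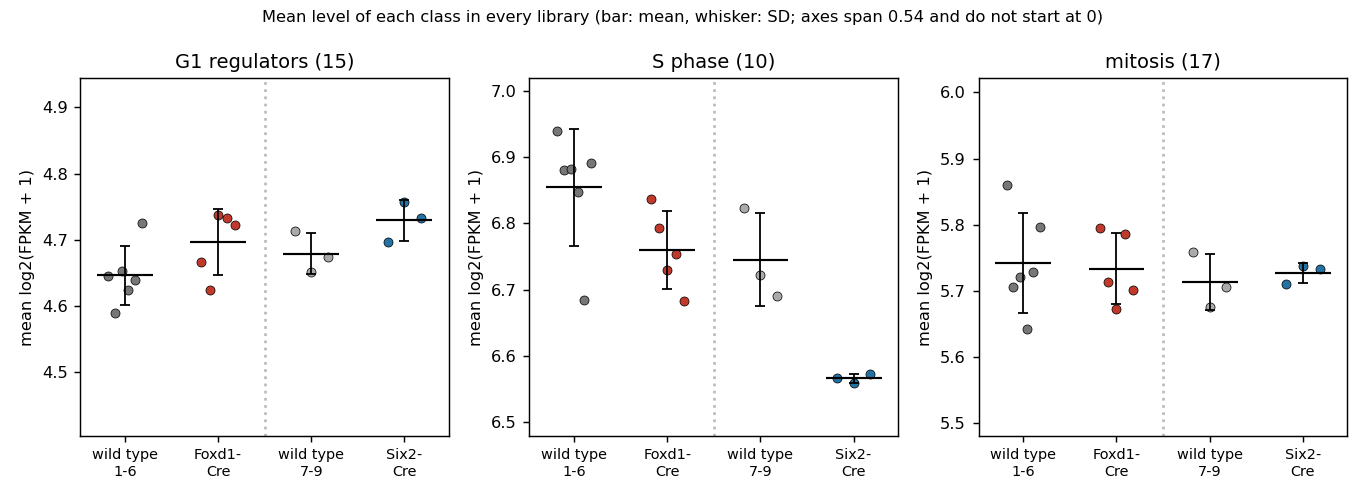
Mean log2(FPKM + 1) of the G1, S phase and mitotic members in each library, by group, with 1 point per library, a bar at each group mean and whiskers of 1 SD. The S phase mean is lower in the 3 Six2-Cre libraries (6.56 to 6.57) than in wild types 7 to 9 (6.69 to 6.82), and the mitotic means overlap in both library sets.

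Within a group, members of the same class moved together from library to library to different degrees. After subtracting group means, the median Pearson correlation over pairs of genes in the 11 libraries of the Foxd1-Cre set was 0.75 for S phase genes (45 pairs), 0.62 for mitotic genes (136 pairs) and 0.18 for G1 regulators (105 pairs). The median Spearman values were 0.66, 0.64 and 0.20. Leaving out the 2 libraries farthest from the median class mean gave Pearson medians of 0.49, 0.50 and 0.03. In the 6 libraries of the Six2-Cre set the Pearson medians were 0.56 for S phase genes, 0.20 for mitotic genes and 0.00 for G1 regulators. The same check gave -0.007, 0.109 and 0.057 there. It left 1 wild type for S phase and mitotic genes, too little residual spread to read. All pairs share the same libraries and their scaling, so these are descriptions without a test.

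The effects of the 2 mutants differed for 3 of 42 members, Ccnd1, Cdkn1a and Rb1, all G1 regulators, against 11.0% of 13810 genes. The Foxd1-Cre change was the higher one for Ccnd1 and Rb1, against 5.76% of all genes, and the lower one for Cdkn1a, against 5.24%. For the 39 others the difference was not called, which does not show that the mutants act alike. The median standard error of a difference among the members was 0.08.

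Wider lists of genes with the same roles were read beside the members. Among 44 other replication genes, 9 fell and 0 rose in Foxd1-Cre kidneys and 3 fell and 0 rose in Six2-Cre kidneys, where 4.82% and 5.84% of all genes fell. Of the 44 estimates, 41 and 38 lay below 0, against 53% and 51.8% of all genes. These estimates come from the same libraries and are not separate observations either. The 9 included the origin recognition subunit Orc6 (60.2 ± 1.62 FPKM in wild types, n = 6, and 51.7 ± 1.72 in Foxd1-Cre kidneys, n = 5, SD) with a change of -0.22 ± 0.03 (SE, adjusted p = 0.000327), the primase Prim1 (-0.19 ± 0.03, adjusted p = 0.00196), the helicase cofactor Gins1 (-0.18 ± 0.03, adjusted p = 0.00232) and the histone mRNA binding protein Slbp (-0.11 ± 0.02, adjusted p = 0.0042). The 3 were the dUTPase Dut (-0.38 ± 0.07, adjusted p = 0.0176), Rfc1 (-0.14 ± 0.03, adjusted p = 0.0495) and the licensing factor Cdt1 (-0.34 ± 0.09, adjusted p = 0.0499). With libraries rescaled to the same sum, 3 replication genes fell in Foxd1-Cre and 1 in Six2-Cre kidneys. With any 1 library left out, 5 to 9 fell in Foxd1-Cre and 0 to 1 in Six2-Cre kidneys. In Foxd1-Cre kidneys 2 fell with the erythroid covariate, 3 with all 9 wild types as controls and 5 with the replicate block. Of 54 other mitotic genes tested, 1 was called in Foxd1-Cre kidneys, where the kinetochore gene Spc25 fell (-0.24 ± 0.04, adjusted p = 0.00146), and 0 were called in Six2-Cre kidneys. Over all genes 13.3% and 13.8% were called. In each mutant limma gave 4 of the 54 at an unadjusted p under 0.05, a threshold at which the share of all genes was not computed.

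Of 28 other G1 genes tested, 2 rose and 1 fell in Foxd1-Cre kidneys, and 2 rose and 5 fell in Six2-Cre kidneys. Over all genes 8.45% rose and 4.82% fell in the first and 7.93% and 5.84% in the second. With any 1 library left out, 0 of the 28 rose and 1 to 5 fell in Six2-Cre kidneys. Myc, a transcription factor that promotes entry into the cycle and a known beta-catenin target in other tissues, rose from 47.9 ± 2.09 to 54.9 ± 0.99 FPKM in Foxd1-Cre kidneys (SD, n = 6 and 5, change 0.19 ± 0.03, adjusted p = 0.0017). It fell from 46.4 ± 2.89 to 26.2 ± 1.07 FPKM in Six2-Cre kidneys (SD, n = 3 and 3, change -0.80 ± 0.06, adjusted p = 0.0013). The 2 Myc changes differed by 1.00 (adjusted p = 9.31e-06). The inhibitor Cdkn1c (p57) fell in both, by 0.46 in Foxd1-Cre (adjusted p = 0.000123) and by 0.21 in Six2-Cre kidneys (adjusted p = 0.0197). The repressor E2f7 rose in both, at 0.18 (adjusted p = 0.0195) and 0.33 (adjusted p = 0.0346), and E2f8, E2f4 and Mycn fell in Six2-Cre kidneys, at -0.38, -0.26 and -0.27. Ccng1, also on the p53 list, rose in Six2-Cre kidneys, at 0.28 (adjusted p = 0.048).

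Cdkn1a is a p53 target, and a list of other p53 targets was read beside it. Of 15 tested, 1 rose and 2 fell in Foxd1-Cre kidneys (8.45% and 4.82% of all genes), and 2 rose and 1 fell in Six2-Cre kidneys (7.93% and 5.84% of all genes), counts too small to set apart from those shares. The kinase gene Plk2 rose in both, at 0.48 ± 0.07 (SE, adjusted p = 0.000684) and 0.41 ± 0.05 (SE, adjusted p = 0.00692). Btg2 (-0.31) and Gadd45a (-0.28) fell in Foxd1-Cre kidneys and Aen (-0.37) in Six2-Cre kidneys, and Mdm2 was at -0.18 (adjusted p = 0.0642) in the latter.

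Markers of the cell types in the kidney moved with the same groups. Of 10 nephron progenitor markers 6 fell in Foxd1-Cre and 7 fell in Six2-Cre kidneys, and their summed FPKM was 238.0 to 241 in Six2-Cre libraries against 421 to 478 in wild types 7 to 9, and 390.0 to 434 in Foxd1-Cre libraries against 478 to 594. Ureteric bud markers summed to 190.0 to 199 FPKM in Six2-Cre libraries against 253 to 272, with 7 of 10 lower, and to 242 to 301 against 237 to 283 in the Foxd1-Cre set, with 1 higher and 1 lower. Stromal markers summed to 476 to 545 FPKM in Foxd1-Cre libraries against 616 to 752, with 5 of 10 lower and 1 higher, and to 719 to 776 against 655 to 682 in the Six2-Cre set, with 4 higher and 1 lower. Endothelial markers summed to 215 to 226 FPKM in Six2-Cre libraries against 107 to 129, with 8 of 8 higher, and to 174 to 222 against 163 to 198 in the Foxd1-Cre set, with 2 of 8 higher. Erythroid markers summed to 3870 to 4770 FPKM in Six2-Cre libraries against 7590 to 9190, with 7 of 8 tested lower and 1 higher, and to 3230 to 5300 against 3960 to 7930 in the Foxd1-Cre set, with 3 lower. Macrophage markers were higher for 3 of 8 in Six2-Cre kidneys and for 0 in Foxd1-Cre kidneys, and neural markers rose for 3 and 2 and fell for 0 and 1 of the 6 tested. No marker of these lists was at 0 in all 17 libraries. By these sums, nephron progenitor, ureteric bud and stromal markers were detected in every group. With the mean log2 level of the erythroid list as a covariate, 0 genes were called in Six2-Cre kidneys, members included. The part of these cell types in the changes of the cell cycle genes was not tested.

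Another annotated gene overlaps the span of 20 of the 42 members, introns included. Overlap of exons was not computed, so the number of members whose reads could be shared is not known. Ccnd1 and Cdkn1a overlap genes on the opposite strand, as do Ccnd2, Cdk4 and Cdk6. Rb1 holds Lpar6 on the opposite strand, and Mcm7 holds Mir25, Mir93 and Mir106b on its own strand. Strand-specific counting is not stated, so reads from an opposite-strand gene cannot be told apart where exons overlap. Ccnd3, Pcna, Tyms, Ccnb1 and Ccnb2 have annotated pseudogenes, between which the quantification could split reads.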

How the data were processed

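Total RNA of 17 kidney samples was sequenced, and the sample titles gave each library's group and replicate number. The authors deposited 1 table of FPKM values. Per the submitters' processing notes, reads were base-called with bcl2fastq 2.17.1.14 and quantified with Salmon on GRCm38. The annotation, the gene-level summary and any scaling are not given in the sources used here. IDs were matched to symbols in GENCODE M21, where 24189 of 24432 had one. Depth was read from the smallest FPKM steps of 1928 genes with 1 transcript.

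Genes reaching 1 FPKM in 3 or more of the 17 libraries were fitted with limma 3.58.1 in R 4.3.3 on log2(FPKM + 1), with a variance trend, separately in each library set, and p-values were Benjamini-Hochberg adjusted over all genes tested. The difference between mutants used both standard errors and Satterthwaite degrees of freedom. The scripts were tested on simulated data. Members and lists were chosen with earlier results of these data known. Values are given for members called in at least 1 mutant and for the member of each class with the highest FPKM, with group means of Cdkn1b and Mki67 added, and up to 4 genes with the smallest p are named per other list, besides Mycn, singled out after its values were seen. Alternatives were another pseudocount, no filter, 2 rescalings, all 9 wild types, an erythroid covariate, a replicate block, a joint fit and leaving out each library.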

Additional observations from a re-analysis of the deposited data

Results flagged for a closer look

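In groups of 4 to 10 libraries, a value was marked where 1 library stood apart by Dixon's gap test. In all 84 such tests of the members, 10 values were marked, and chance marks about 1 in 20 groups. Wild type 5 was the lowest of wild types 1 to 6 for 4 helicase genes, at 69.28 FPKM for Mcm2, 80.44 for Mcm3, 64.31 for Mcm4 and 79.69 for Mcm5, and the highest for Cdk2, at 49.35 FPKM. Wild type 4 was the lowest for Tyms, at 149.6 FPKM, and wild type 1 the highest for Ccnb1, at 104.1 FPKM. Among the Foxd1-Cre libraries, replicate 1 was the lowest for Ccne1, at 41.98 FPKM, replicate 2 the lowest for Rb1, at 4.954 FPKM, and replicate 4 the highest for Cdk1, at 67.81 FPKM.

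The change against wild type differed between the mutants, by a test of the difference, for 3 members. The Foxd1-Cre change minus the Six2-Cre change was 0.499 for Ccnd1, -0.754 for Cdkn1a and 0.406 for Rb1 on the log2 scale.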

How the results depend on the processing

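Of the members' changes recomputed under each alternative, 2124 kept their side of the threshold, 46 newly passed it and 49 no longer passed it. The 2124 include changes of direction that were called in neither fit. Mitotic estimates below 0 in Foxd1-Cre kidneys, for example, went from 8 of 17 to 16 with the erythroid covariate. Another 7 reversed direction with a call in at least 1 of the 2 fits. All 7 reversals came with all 9 wild types as controls, for the difference between mutants: Ccnd3 0.395, Ccne1 0.433, Cdk6 -0.963, Rb1 -0.166, Tyms 0.935, Cdk1 0.26 and Aurkb 0.349. For each mutant, that setting uses wild types of both library sets. For the difference the shared wild types cancel, so the 2 mutants are compared directly with each other across the library sets. It gave 1 member higher and 0 lower in Foxd1-Cre, 10 and 15 in Six2-Cre kidneys, and 15 and 10 for the difference. Over all genes it gave 337 lower in Foxd1-Cre, 2747 higher and 3697 lower in Six2-Cre kidneys, and 5108 and 3397 for the difference.

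Rescaling to the same sum gave 1 member lower in Foxd1-Cre and 3 in Six2-Cre kidneys, and 408 genes lower in Foxd1-Cre kidneys among all genes, where the share of higher calls moved from 63.69% to 75.11%. With the erythroid covariate, 0 members and 0 genes were called in either direction in Six2-Cre kidneys, where the erythroid level and the genotype cannot be told apart. In Foxd1-Cre kidneys 419 genes were lower with it, and the cause was not tested. Without the filter, and in the joint fit, 1 member was higher for the difference.

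Leaving out 1 library gave 3 to 3 members higher and 1 to 6 lower in Foxd1-Cre, 1 to 2 and 2 to 5 in Six2-Cre kidneys, and 1 to 2 and 1 to 1 for the difference. Over all genes it gave 921 to 1236 higher and 485 to 759 lower in Foxd1-Cre, 568 to 885 and 339 to 582 in Six2-Cre kidneys, and 532 to 814 and 504 to 766 for the difference. S phase estimates stayed below 0 for 10 of 10 genes in both mutants, except for 8 of 10 with all 9 wild types and 9 of 10 in Six2-Cre kidneys without wild type 7.

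Foxd1-Cre and wild-type libraries share replicate numbers 1 to 5 but did not deviate together (correlations of 0.022 to 0.099), and no library correlated best with its own number. The replicate block left 1 member lower in Foxd1-Cre kidneys in place of 2, and 929 genes higher and 497 lower among all genes. No paired analysis was possible for Six2-Cre kidneys because they share no replicate number with wild types 7 to 9. The Six2-Cre set has about 5400000 to 5900000 reads and 3 libraries a group, and the median standard error of the members there was 0.055, against 0.051 in the Foxd1-Cre set.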

Other observations

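Levels of the cell cycle genes also differed between the wild types of the 2 library sets. For 10 members wild types 7 to 9 were all above wild types 1 to 6, for 13 they were all below, and for 19 the sets overlapped. Mki67 averaged 50.8 FPKM in wild types 1 to 6 and 102.8 in wild types 7 to 9, Cdk6 2.02 and 5.61 FPKM, and Tyms 157 and 79.8 FPKM. These gaps between wild types were wider than any change of these genes against the wild types of the same set. No label gives a cause, and depth moved with the sets.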
